A study of Mus musculus with 20 samples.

Results

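The genes described here are 10 genes of the motile cilia of airway epithelium: Foxj1, Dnah5, Dnah9, Dnah11, Ccdc39, Ccdc40, Tekt1, Rsph1, Hydin and Sec14l3. They were taken by symbol from a deposited table of 51826 genes, and all 10 were present and had enough counts to be tested, as had 18452 genes in all. The table holds total RNA of 14 mouse lung metastases and of the 6 primary sarcomas they were matched with. The title of the study names the non-coding RNA Neat1, the spread of sarcoma and splicing. Each primary tumour forms a matched set with its metastases: sets 1 and 2 hold 4 metastases each, sets 3 and 6 hold 2 each, and sets 4 and 5 hold 1 each. In names such as 2-3 the set comes before the number of the metastasis, and 5-x stands for the unnumbered metastasis in set 5. Both groups carry the same genotype label, a mixed background, and no label gives a driver allele, a treatment, an age or a tumour site. Which samples came from separate animals is not in the labels, and metastases of a set may share an animal, so p-values reflect only how these samples vary.

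In mm10 (GRCm38, GENCODE annotation), 5 of the genes lie on chromosome 11: Foxj1 (chr11:116330704-116335399, minus strand), Dnah9 (chr11:65831282-66168551, minus), Ccdc40 (chr11:119228572-119265238, plus), Tekt1 (chr11:72344722-72362442, minus) and Sec14l3 (chr11:4064841-4077736, plus). The others are Dnah5 (chr15:28203752-28472052, plus), Dnah11 (chr12:117877982-118199043, minus), Ccdc39 (chr3:33812362-33844310, minus), Rsph1 (chr17:31255019-31277383, minus) and Hydin (chr8:110266977-110610253, plus). Their merged exons in this annotation span 1372 bases in Rsph1 to 18037 bases in Hydin. The annotation release behind the deposited counts is not stated, and the identifiers of Dnah5, Ccdc40 and Rsph1 differ in version. The exons counted may therefore differ from these.

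Motile cilia are beating, hair-like structures that stand in large numbers on multiciliated cells, which share the airway lining with secretory club cells and move mucus towards the throat. Their core, the axoneme, is a ring of microtubule doublets around a central pair. Dynein motors in an outer and an inner row of arms bend it, and radial spokes, the central pair and the nexin links between doublets regulate the motors. Most cells carry at most a single non-motile primary cilium, which lacks the arms, spokes and central pair and shares with motile cilia the trains of intraflagellar transport that build it. Loss of many of these genes causes primary ciliary dyskinesia in people.

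Total counts ran from 20603620 to 36824370 per library. Levels are given as CPM, counts scaled to a common library total after adjusting libraries by TMM factors. Lung genes were higher in most metastases: 13 of 15 tested club and secretory genes were higher in metastases than in primary tumours (summed level 67.4 to 10530 CPM in metastases and 1.18 to 214 CPM in primary tumours), as were 6 of 10 alveolar type 2 genes (102.5 to 12200 CPM in metastases and 7.65 to 112 CPM in primary tumours) and 5 of 8 alveolar type 1 genes (85.3 to 1905 CPM in metastases and 29.8 to 86.4 CPM in primary tumours). Skeletal muscle genes went the other way, with 8 of 13 lower in metastases (summed level 49.7 to 11330 CPM in metastases and 6.50 to 29270 CPM in primary tumours). Over all genes tested, 7.34% were called higher and 6.44% lower (edgeR adjusted p under 0.05), and the counts of these lists are descriptions. Some club and secretory sums came mostly from Cbr2 and Hp, which were not called (edgeR adjusted p 0.977 and 0.134). These genes had 144.7 and 66.1 of the 214 CPM in primary tumour 3. Hp alone had 1178 of the 1207 CPM in metastasis 2-3 and 59.8 of the 67.4 CPM in 2-4. Median Cbr2 was 44.6 CPM in metastases and 68.3 CPM in primary tumours. Metastases 2-3 and 2-4 had little sign of airway: Scgb1a1, which encodes the main secretory protein of club cells, had 20 and 33 counts there, against 4775 to 249118 counts in the other 12 metastases. Metastasis 1-1 stood apart by its 8031 CPM of Scgb1a1, against at most 597 CPM in any other metastasis. Primary tumours 4 and 6 stood apart by low skeletal muscle genes, with sums of 75.5 and 6.50 CPM against 11450 to 29270 CPM in the other 4 primary tumours, and also by base composition. The lean of a library, the median log2 deviation of its 1842 most G+C-rich genes minus that of its 1842 poorest, was -3.79 in metastasis 4-1, -3.16 in metastasis 3-2, -5.27 in primary tumour 4 and -0.94 in primary tumour 6, and between -0.09 and 0.63 in the other 16. The comparison of the 10 genes is given with and without these libraries where they move it.

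Of the 10 motile cilia genes, 8 were higher in metastases than in primary tumours, 0 were lower, and Ccdc39 and Tekt1 did not pass the threshold (edgeR quasi-likelihood test with the matched set as a block, Benjamini-Hochberg adjusted p under 0.05 over 18452 genes). Over all genes, 7.34% were called higher and 6.44% lower. The median log2 fold change of the 10 genes was 5.31, against -0.00032 over all genes tested. In mean log2 CPM, 8 of the 10 were higher in the metastases of all 6 sets, which held for 9% of all genes, and Hydin alone had every metastasis above every primary tumour, which held for 0.981% of all genes. Their summed level was 22.3 to 753 CPM in metastases, with a median of 57.1, and 1.31 to 32.0 CPM in primary tumours, with a median of 3.57. Single genes carried much of this sum. Sec14l3 made 495 of the 753 CPM in metastasis 1-1. Dnah5 made 19.2 of the 22.3 CPM in metastasis 2-4 and 25.5 of the 32.0 CPM in primary tumour 4. The called genes other than Dnah5 had at most 0.435 CPM in any primary tumour and passed the filter on low counts through the metastases, so their count is a description. In such bulk samples, fewer ciliated cells and less RNA per cell cannot be told apart.

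**Figure D1:**
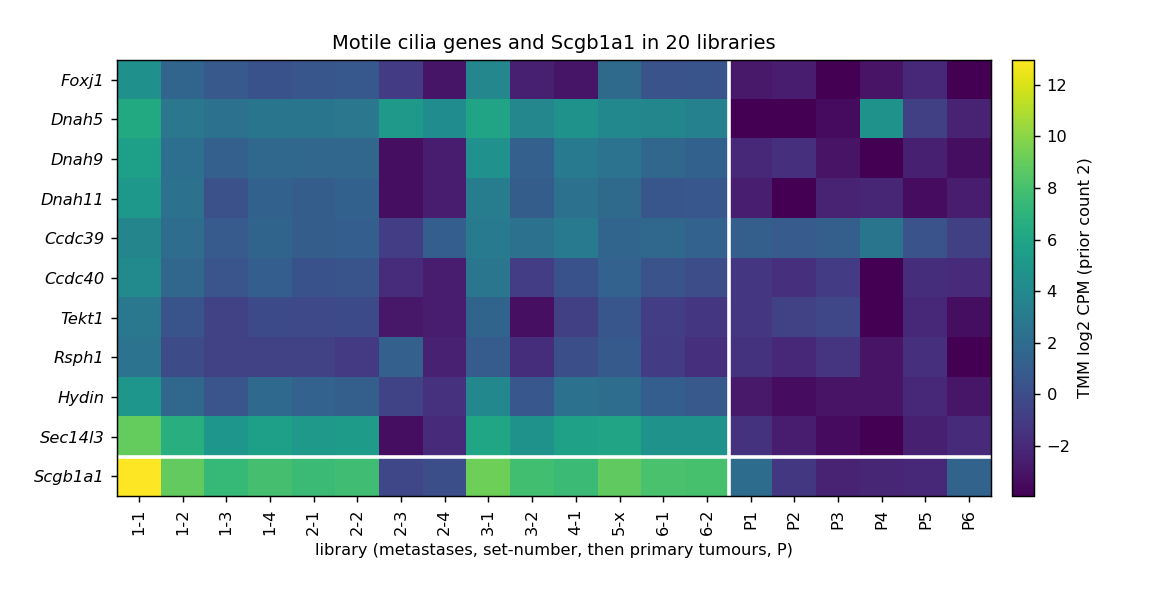
TMM log2 CPM (prior count 2, colour) of the 10 genes and Scgb1a1 (rows) in 14 lung metastases (left of the white line, by set and number) and 6 primary tumours (right, P1 to P6). Metastasis 1-1 is highest in every row, metastases 2-3 and 2-4 are dark for most genes but not for Dnah5, and Dnah5 is bright in primary tumour 4.

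The markers of the other cell types that could carry these genes moved as follows. Scgb1a1 ranged over 0.719, 240 and 8031 CPM (lowest, median, highest) in metastases and 0.136, 0.270 and 4.09 CPM in primary tumours, a log2 fold change of 8.98 ± 1.66 (SE, edgeR adjusted p 0.00353). Of 6 basal cell genes of the airway 3 were tested and only Aqp3, a water channel, was higher (3.56, edgeR adjusted p 0.00223), and the 6 genes summed to 1.28 to 58.5 CPM in metastases and 0.404 to 12.3 CPM in primary tumours. Testis cells carry the related sperm flagellum, but of 8 testis genes only the germ cell helicase gene Ddx4 was tested, with a log2 fold change of 0.14 (edgeR adjusted p 0.916), Tnp2, which encodes a chromatin protein of developing sperm, had 0 counts in all metastases, and the list summed to 0.232 to 1.73 CPM in metastases and 0.101 to 0.653 CPM in primary tumours. Ependyma, the ciliated lining of the brain ventricles, and choroid plexus were represented by 6 genes, of which 2 were tested and Clic6, a chloride channel protein gene, was higher (5.33, edgeR adjusted p 0.0118), while the folate receptor gene Folr1 had 2.31 (0.102). That list summed to 1.21 to 331 CPM in metastases and 0.0535 to 0.766 CPM in primary tumours. Its highest sum came mostly from a single gene. In metastasis 2-3, Ttr, the transthyretin gene of liver and choroid plexus, made 327.7 of the 331 CPM. Ttr also made 30.8 of the 31.38 CPM in 2-4 and had at most 0.277 CPM in any other metastasis. The part of other tissues in the levels of the cilia genes was not tested.

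Foxj1 encodes the forkhead transcription factor that drives the programme of motile cilia. It ranged over 0.0594, 1.37 and 22.8 CPM in metastases and 0, 0.0669 and 0.177 CPM in primary tumours, or 1516 counts in all over the metastases and 13 over the primary tumours. Metastases 1-1 and 3-1 were highest, with 22.8 and 14.7 CPM, and 11 metastases lay above all primary tumours, while 2-4, 3-2 and 4-1 lay among them. The log2 fold change was 5.13 ± 1.43 (SE, edgeR adjusted p 0.0259). In set 4 the difference of log2 CPM was 0.07, against 2.01 to 4.67 in the other 5 sets. Set 4 is formed by metastasis 4-1 and primary tumour 4, whose G+C-rich genes were low, and the longest Foxj1 transcript is 61.4% G+C, higher than 98.2% of the genes tested. Without set 4 and metastasis 3-2 the log2 fold change was 5.66 (edgeR adjusted p 0.0124), and with an offset for each library's trend on G+C content it was 4.91 (edgeR adjusted p 0.0195).

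The outer arm heavy chains are the motors that set the beat frequency. Dnah5 encodes a heavy chain found along the whole cilium, Dnah9 its partner in the outer stretch and Dnah11 its partner near the base. Dnah9 ranged over 0.0359, 3.03 and 47.8 CPM in metastases and 0, 0.0861 and 0.242 CPM in primary tumours. Metastases 2-3 and 2-4 lay among the primary tumours, with 1 and 3 counts, and the other 12 lay above all of them. The log2 fold change of Dnah9 was 5.49 ± 1.29 (SE, edgeR adjusted p 0.0117). Dnah11 ranged over 0.0359, 2.21 and 32.8 CPM in metastases and 0, 0.104 and 0.161 CPM in primary tumours. The same 12 metastases lay above all primary tumours. Its log2 fold change was 5.57 ± 1.13 (SE, edgeR adjusted p 0.00565), and it kept its call under each of the 17 other settings tried.

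Dnah5 parted from its partners. It ranged over 4.96, 14.3 and 80.0 CPM in metastases and 0, 0.0809 and 25.5 CPM in primary tumours. In metastases 2-3 and 2-4, where Dnah9 and Dnah11 were nearly absent, it had 37.3 and 19.2 CPM (1037 and 637 counts), the third and the fifth highest of all metastases. In primary tumour 4 it had 476 counts, 25.5 CPM, against 0 counts of Dnah9, and its matched metastasis 4-1 had 26.2 CPM. The other 5 primary tumours had 0 to 18 counts of Dnah5. Because of primary tumour 4, only 4 metastases lay above all primary tumours. The log2 fold change within sets was 7.06 ± 1.59 (SE, edgeR adjusted p 0.00945), with a difference of 0.04 in set 4 and 4.69 to 8.35 in the other 5 sets. Without the replicate block it was 2.35 (edgeR adjusted p 0.216), and the call was also lost when the metastases of each set were summed (7.06, edgeR adjusted p 0.0977) and with metastasis 1 of each set alone (7.07, 0.101). Without set 4 and metastasis 3-2, and with the block, it was 8.11 (edgeR adjusted p 0.00304).

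The ratio of Dnah5 to Dnah9 counts placed these libraries apart from the rest. It was 1.49 to 2.70 in the metastases of sets 1 and 5 and in 2-1, 2-2 and 3-1. It was 4.51 (95% exact interval 3.61 to 5.69) and 4.68 (3.66 to 6.03) in metastases 6-1 and 6-2, 3.14 (2.74 to 3.60) in 4-1 and 6.44 (4.89 to 8.62) in 3-2. In metastasis 2-4 it was 212 (72.3 to 1032), and in 2-3 it was 1037 (186 to 41000). In primary tumour 4, with no count of Dnah9, the lower bound was 128.5. The intervals cover counting error only. Dnah5 is 47.1% G+C and Dnah9 51.0%. Libraries 2-3 and 2-4 leaned by 0.54 and 0.41, and 6-1 and 6-2 by -0.09 and 0.27. Primary tumour 4 leaned by -5.27, and metastases 3-2 and 4-1 by -3.16 and -3.79. The part of base composition in these ratios was not tested. Beside Dnah5, metastases 2-3 and 2-4 also held 327.7 and 30.8 CPM of Ttr, the transthyretin gene of liver and choroid plexus, against 0 to 0.277 CPM in the other 12 metastases and 0 to 0.0544 CPM in primary tumours. Hp, the haptoglobin gene of the club cell list, had 1178 and 59.8 CPM in 2-3 and 2-4, against 3.80 to 261 CPM in the other 12 metastases and 0 to 66.1 CPM in primary tumours. In primary tumour 4, the other library of high Dnah5 and few Dnah9 counts, both Ttr and Hp had 0 counts. Ttr and Hp were picked out after their values were seen, and whether they share a source with Dnah5 was not tested.

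**Figure D2:**
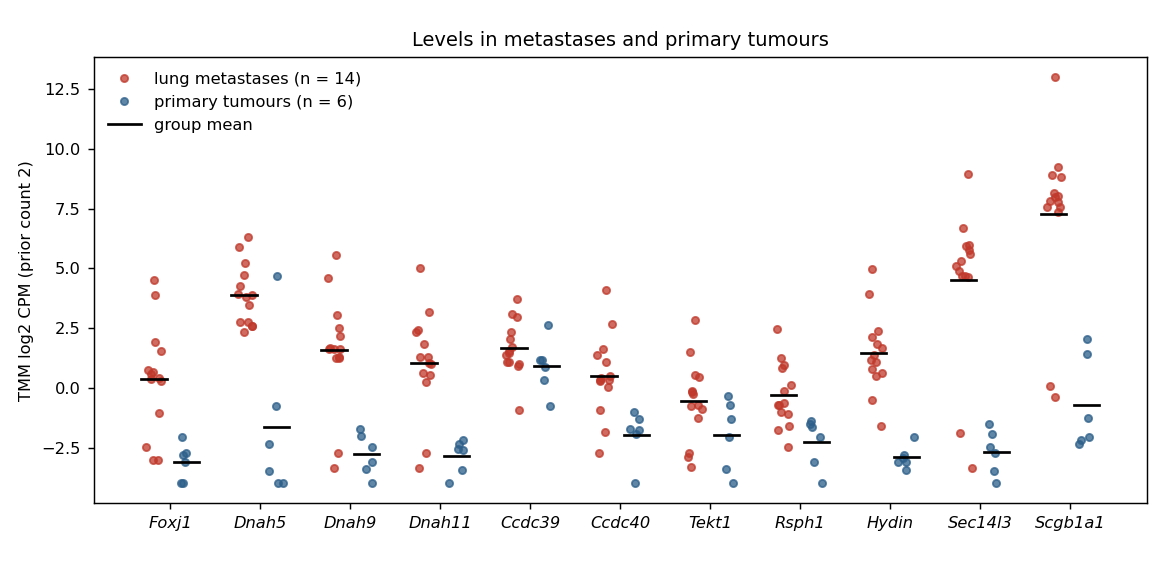
TMM log2 CPM (prior count 2) of each gene in 14 lung metastases (red, left) and 6 primary tumours (blue, right); points are libraries and bars are group means. The groups overlap for every gene but Hydin, and primary tumour 4 is the single blue point high up for Dnah5.

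Ccdc40 and Ccdc39 encode a pair of coiled-coil proteins that act together as the ruler by which spokes and inner arms are spaced along the doublet. Ccdc40 ranged over 0.0904, 1.25 and 17.3 CPM in metastases and 0, 0.239 and 0.435 CPM in primary tumours. All metastases but 2-3 and 2-4 lay above all primary tumours. Its log2 fold change was 2.99 ± 0.84 (SE, edgeR adjusted p 0.0276). Ccdc39 ranged over 0.467, 2.81 and 13.3 CPM in metastases and 0.539, 1.99 and 6.15 CPM in primary tumours. The groups overlapped widely, and only 1-1, 3-1 and 4-1 lay above all primary tumours. Its log2 fold change of 1.02 ± 0.48 (SE) did not pass the threshold (edgeR adjusted p 0.170), with a difference of -0.31 in set 2 and 0.32 to 2.29 in the other 5 sets. Without set 4 and metastasis 3-2 it was 1.17 (edgeR adjusted p 0.150). The longest Ccdc39 transcript is 39.9% G+C, higher than only 8.11% of the genes tested. The median log2 deviation of the 1842 G+C-poorest genes was 1.96 in primary tumour 4, 1.10 in metastasis 4-1 and 1.13 in metastasis 3-2. The part of base composition in the Ccdc39 levels of these libraries was not tested. Ccdc39 shares 1256 exonic bases, 16.9% of its exons, with Ttc14 on the opposite strand, which had 73694 counts in all against 2145 of Ccdc39. Ttc14 was highest in primary tumours 4 and 6, at 737 and 337 CPM, and Ccdc39 was highest among primary tumours in tumour 4, at 6.15 CPM, but lowest in tumour 6, at 0.539 CPM. In primary tumour 6, 9999 counts of Ttc14 stood beside 16 of Ccdc39, so at most 16 counts there can be reads of Ttc14. In primary tumour 4, 13768 counts of Ttc14 stood beside 115 of Ccdc39. The libraries were made with a stranded kit, but the strand setting of the counting is not stated in the labels or processing notes. How far reads of Ttc14 enter Ccdc39 in the other libraries was not tested.

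Of the structural genes, Hydin and Rsph1 were higher in metastases and Tekt1 was not called. Hydin encodes a very large protein of a projection of the central pair. It ranged over 0.271, 2.38 and 31.1 CPM in metastases and 0.0302, 0.0609 and 0.177 CPM in primary tumours. Its lowest metastasis, 2-4 with 9 counts, lay above its highest primary tumour, tumour 5 with 6 counts. The log2 fold change of Hydin was 5.88 ± 0.98 (SE, edgeR adjusted p 0.00211), the smallest p of the 10 genes, and it kept its call under each of the 17 other settings tried. Rsph1 encodes a protein of the radial spoke head. It ranged over 0.121, 0.576 and 5.51 CPM in metastases and 0, 0.223 and 0.327 CPM in primary tumours. Metastasis 2-3, poor in most of these genes, had 2.30 CPM (64 counts), the second highest after 1-1, and 11 metastases lay above all primary tumours. Its log2 fold change was 2.68 ± 0.79 (SE, edgeR adjusted p 0.0329). Tekt1 encodes a tektin, a filament protein inside the doublets. It ranged over 0.0392, 0.672 and 7.06 CPM in metastases and 0, 0.262 and 0.735 CPM in primary tumours. Only 7 metastases lay above all primary tumours. Its log2 fold change of 1.74 ± 0.90 (SE) did not pass the threshold (edgeR adjusted p 0.217), with differences of -0.77 and -0.56 in sets 2 and 3 and 1.90 to 3.22 in the other 4 sets.

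Sec14l3 encodes a lipid-binding protein of the Sec14 family that is found in airway ciliated cells. It ranged over 0.0359, 37.02 and 495 CPM in metastases and 0, 0.104 and 0.294 CPM in primary tumours, or 31208 counts in all over the metastases and 25 over the primary tumours. Metastases 2-3 and 2-4 lay among the primary tumours, with 1 and 7 counts, and the other 12 lay far above them. In those 12, the count ratio of Sec14l3 to Dnah9 ran from 2.59 (95% exact interval 2.33 to 2.88) in 3-1 to 22.6 (19.2 to 26.8) in 1-2. Which cells of the metastases carried Sec14l3 was not tested. The log2 fold change was 8.72 ± 1.47 (SE, edgeR adjusted p 0.00226), the largest of the 10 genes, and the call held under each of the 17 other settings tried. Per kilobase of exon, the median level in metastases was 13.3 CPM for Sec14l3, 0.917 for Dnah5, 0.521 for Foxj1, 0.420 for Rsph1, 0.415 for Tekt1, 0.378 for Ccdc39, 0.208 for Ccdc40, 0.190 for Dnah9, 0.153 for Dnah11 and 0.132 for Hydin. Scgb1a1 had 503 CPM per kilobase on the same scale. Within libraries, Sec14l3 lay above Dnah5 in 12 of 14 metastases, Ccdc39 above Ccdc40 in 12 and Dnah9 above Dnah11 in 11. The other neighbours in this order kept it in 6 to 10 of the 14, and the ranges of all neighbours overlapped across metastases.

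The count of 8 changed with the sets included. Leaving out set 1 removed the calls of Foxj1, Dnah9, Ccdc40 and Rsph1 (edgeR adjusted p 0.105, 0.0536, 0.0965 and 0.0874) and left 4 genes called. Leaving out set 2 removed Foxj1, Dnah5 and Rsph1 (0.0594, 0.0535 and 0.0692) and leaving out set 6 removed Foxj1, Ccdc40 and Rsph1 (0.0841, 0.0710 and 0.0904), with 5 genes called each time. The count stayed 8 without metastasis 1-1, without metastases 2-3 and 2-4, and without set 4 and metastasis 3-2.

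Stretches before the start of 3 of these genes are shown because they hold letters of the motifs tied to cilia genes: the X-box, which RFX factors bind, and the forkhead core, which Foxj1 and its relatives bind. Promoters of 8 of the 10 genes were matched by symbol in RefSeq (GRCm38.p6). The 250 bases before each annotated start were searched on both strands. The X-box, searched as GT, 2 bases of any kind, CC, 3 of any kind, G, 1 of any kind and AAC, lay in 1 of the 8 genes, Hydin, against 1.8% of all 32851 promoter windows. Its half-site GTTGCC lay in Hydin, inside the X-box, and in Tekt1, against 10.4% of windows. The forkhead core TGTTTA lay in Dnah11 and Dnah5, against 12% of windows, and TATAAA in 0 of the 8, against 12.4%. The Hydin window is chr8:110266727-110266976 on the plus strand, that of Dnah11 is chr12:118199044-118199293 on the minus strand and that of Dnah5 is chr15:28203516-28203765 on the plus strand. Each is written 5′ to 3′ along its gene, and capitals mark the X-box at base -21 in Hydin and the forkhead core, read on the other strand as TAAACA, at -186 in Dnah11 and -103 in Dnah5. A match is a description of the letters and shows no binding.
Hydin: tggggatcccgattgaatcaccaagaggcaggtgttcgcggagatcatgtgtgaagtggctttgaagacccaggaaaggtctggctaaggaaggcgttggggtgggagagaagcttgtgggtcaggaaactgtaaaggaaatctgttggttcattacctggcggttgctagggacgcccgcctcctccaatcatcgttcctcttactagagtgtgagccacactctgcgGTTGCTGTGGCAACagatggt
Dnah11: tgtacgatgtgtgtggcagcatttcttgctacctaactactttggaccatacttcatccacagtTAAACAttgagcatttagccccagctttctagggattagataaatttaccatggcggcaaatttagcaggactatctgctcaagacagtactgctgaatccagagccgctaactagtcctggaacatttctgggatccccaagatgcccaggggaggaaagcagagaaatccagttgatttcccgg
Dnah5: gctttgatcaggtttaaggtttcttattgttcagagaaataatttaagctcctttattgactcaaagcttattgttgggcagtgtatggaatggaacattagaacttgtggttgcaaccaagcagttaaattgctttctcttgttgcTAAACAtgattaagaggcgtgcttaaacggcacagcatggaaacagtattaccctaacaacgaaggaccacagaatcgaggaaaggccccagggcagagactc

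Beyond the 10 genes, 102 other motile cilia genes were looked at by role. Of these 86 were tested, 38 were higher in metastases and 0 were lower, with a median log2 fold change of 1.75. The shares over all genes were 7.34% higher and 6.44% lower. Many of the 86 passed the filter on low counts only through the metastases. This count and the counts by role therefore describe the lists and support nothing by themselves. Inner arm dyneins moved most broadly, with 10 of 12 higher. Dnah3 ranged over 0.0719, 3.37 and 27.1 CPM in metastases and 0, 0.0281 and 0.0907 CPM in primary tumours (log2 fold change 6.99, edgeR adjusted p 0.00318), and Dnah7a and Wdr63, also parts of inner arms, had log2 fold changes of 4.55 and 1.74 (0.00472 and 0.00510). The outer arm and docking genes other than the 3 heavy chains gave 2 of 7, the heavy chain gene Dnah17 (3.36, edgeR adjusted p 0.00303) and the docking gene Armc4 (4.78, 0.00540). Dnah17 was highest in metastasis 2-3, at 5.175 CPM, where Dnah9 had 0.0359 CPM, and had 4.19 CPM in 1-1. Ttc25, of the docking complex, had 1.48 (0.0735).

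Radial spoke and central pair genes gave 7 of 15 tested, led by Cfap46 (log2 fold change 5.23, edgeR adjusted p 0.00327) and Spag16 (6.39, 0.00414) of the central pair and Rsph4a of the spoke head (4.25, 0.00365). The list drawn up for the nexin links gave 4 of 8 tested, and not all of its genes encode link subunits. Iqca, a link subunit, ranged over 0.719, 2.13 and 5.35 CPM in metastases and 0, 0.0537 and 0.206 CPM in primary tumours (5.16, edgeR adjusted p 0.000358). Drc7 had 497 counts in all over the metastases and 1 over the primary tumours (edgeR adjusted p 0.00402), and Iqub had a log2 fold change of 2.97 (0.0288). The list drawn up for tektins and proteins inside the doublets gave 4 of 16 tested, and not all of its genes encode such proteins. Among those called were Efhc2 (2.38, edgeR adjusted p 0.00545) and Cfap206 (5.41, 0.00651). The apical cilia gene Sntn ranged over 0, 0.437 and 4.07 CPM in metastases and 0, 0 and 0.0337 CPM in primary tumours (edgeR adjusted p 0.00995). Of 18 tested general markers of multiciliated cells, 12 were higher, with Fam183b at 577 counts over the metastases and 1 over the primary tumours and Ccdc153 at 1353 and 1. Dynlrb2, a dynein light chain gene, had a log2 fold change of 5.88 (edgeR adjusted p 0.00656). That list also holds Foxj1 and shares Sntn, Tppp3 and Cfap126 with the doublet list.

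**Figure D3:**
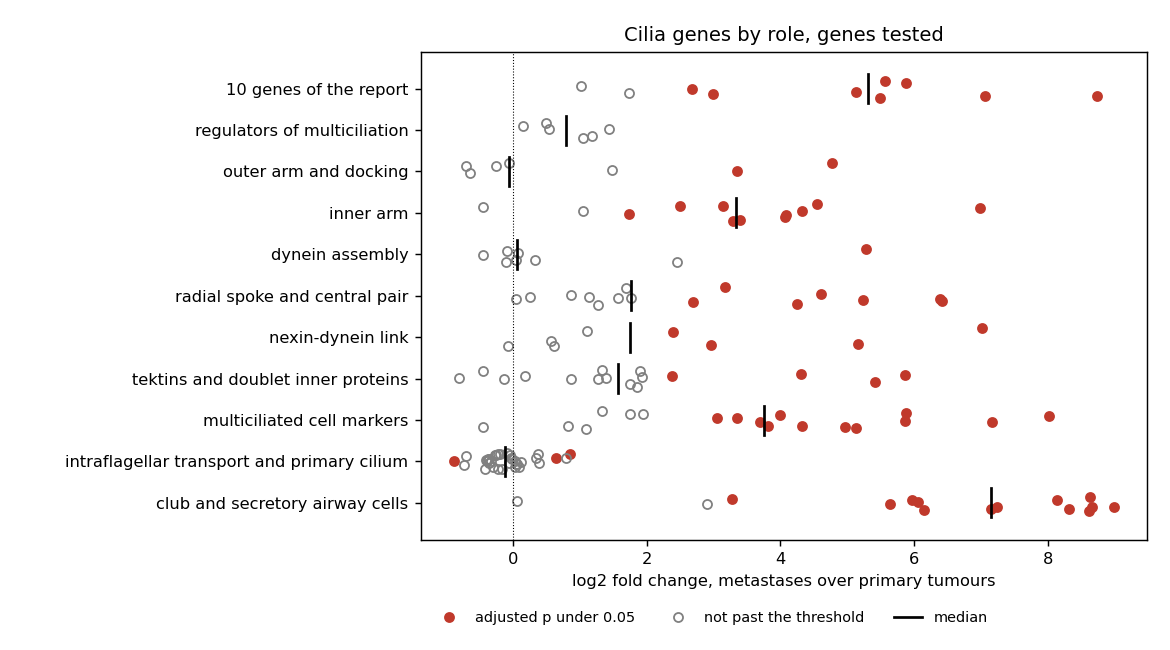
Log2 fold change of metastases over primary tumours for the tested genes of each list (red, adjusted p under 0.05; open grey, not past the threshold; bar, median). Inner arm and marker genes lie mostly to the right, with 10 of 12 and 12 of 18 called, while the 34 genes of intraflagellar transport and the primary cilium crowd around 0.

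No tested regulator that acts with or before Foxj1 was called. Of 9 such genes 6 were tested and 0 passed the threshold in either direction. Over all genes 7.34% were called higher and 6.44% lower, and with such shares 0 of 6 says little about the regulators. Trp73, Gmnc and Cdc20b did not pass the filter on low counts. They had 243, 61 and 48 counts in all over the metastases and 13, 2 and 13 over the primary tumours. Ccno, needed for making many basal bodies, had a log2 fold change of 1.18 (edgeR adjusted p 0.0866), Rfx3, an X-box binding factor, 0.53 (0.128), and Mcidas, an inducer of the multiciliated fate, 1.05 (0.165). Rfx3 was well expressed in both groups, at 15.2, 21.4 and 49.0 CPM in metastases and 11.1, 16.8 and 38.9 CPM in primary tumours. Factors that assemble dynein arms in the cytoplasm gave 1 of 8 tested, Lrrc6 (5.27, edgeR adjusted p 0.00887). Zmynd10 had 2.45 (0.186) and Cfap300 -0.44 (0.313).

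Genes of intraflagellar transport and the primary cilium, which most cells use, were mostly not called. All 34 were tested, with 2 higher, 1 lower and a median log2 fold change of -0.12. The shares over all genes were 7.34% higher and 6.44% lower, so these counts do not set the list apart. The higher genes were Bbs9 and Bbs2, of the BBSome that carries membrane proteins in cilia (0.65 and 0.86, edgeR adjusted p 0.0224 and 0.0282). The lower was Cep290, of the ciliary gate (-0.87, edgeR adjusted p 0.0351), which ranged over 20.6, 29.8 and 89.8 CPM in metastases and 31.3, 49.9 and 355 CPM in primary tumours. Their summed level was 824 to 1185 CPM in metastases and 861 to 2188 CPM in primary tumours, with the highest values in primary tumours 4 and 6, 2188 and 1714 CPM, which leaned to G+C-poor genes. Without these and metastases 3-2 and 4-1 the range was 824 to 1082 CPM in metastases and 861 to 983 CPM in primary tumours. Cep290 had 355 and 102 CPM in primary tumours 4 and 6, and its log2 fold change was -0.80 without set 4 and metastasis 3-2 (edgeR adjusted p 0.0142), but it lost its call without set 4 alone (-0.69, 0.0941) and without set 6 (-0.65, 0.176). Bbs2 lost its call with the G+C offset (0.77, edgeR adjusted p 0.0819), and all of Bbs9, Bbs2 and Cep290 lost theirs without set 1 or set 2.

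Most of the 10 genes followed each other across the 14 metastases. Against the mean log2 CPM of the other 9, Pearson's r was 0.98 for Ccdc40, 0.97 for Hydin, 0.95 for Dnah9 and Dnah11, 0.91 for Tekt1, 0.82 for Sec14l3, 0.77 for Ccdc39, 0.75 for Foxj1, 0.60 for Rsph1 and 0.26 for Dnah5. Without metastases 2-3 and 2-4 it was 0.94 for Rsph1 and 0.74 for Dnah5, and the lowest values were 0.69 for Foxj1 and 0.73 for Ccdc39. Every gene was highest in 1-1, and each but Rsph1 and Sec14l3 was next highest in 3-1. By Pearson correlation with the mean of the 10 over the 14 metastases, the genes most like them were Spata18 (0.983), Ubxn10 (0.980), Wdr66 (0.978), Cfap57 (0.971), Ccdc113 (0.969), Cdhr4 (0.965), Cdhr3 (0.964) and Zfp474 (0.962). These values describe points that share libraries and, in 1-1, a common extreme. Of these genes, Spata18, at a median of 1.09 CPM in metastases and 0.0299 CPM in primary tumours, was higher (log2 fold change 5.91, edgeR adjusted p 0.00518), while Cdhr4, at medians of 0.692 and 0.411 CPM in metastases and primary tumours, was not called (1.10, 0.533).

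The metastases of different primary tumours were compared over the 12 metastases of sets 1, 2, 3 and 6. None of the 10 genes was called between sets (edgeR over 3 degrees of freedom, adjusted p 0.201 for Ccdc39 to 0.729 for Dnah5), and 0 had an unadjusted p under 0.05. With limma voom the count called was also 0. In simulated data with set 2 changed, this comparison recovered 16 of 50 genes changed 4-fold and 28 of 50 changed 8-fold. Even large differences can therefore be missed. Over all genes 64 of 19919, or 0.321%, were called, a background that itself moved to 511 genes with limma voom, 3780 without metastases 2-3 and 2-4, and 0 to 2346 when a set was left out. The spread within sets was wide. Sec14l3 spanned 29.8 to 495 CPM in set 1, 0.0359 to 39.6 CPM in set 2, 26.0 to 63.0 CPM in set 3 and 24.9 to 25.6 CPM in set 6. Dnah5 spanned 4.96 to 80.0 CPM in set 1, 6.02 to 37.3 CPM in set 2, 14.9 to 59.6 CPM in set 3 and 11.1 to 13.8 CPM in set 6.

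Set against Scgb1a1, the cilia genes kept a narrower range than their levels did, apart from Ccdc39. In the 12 metastases with at least 50 counts of Scgb1a1, the 10 genes together had 93.8 to 576 counts per 1000 counts of Scgb1a1, with a median of 277. The largest term of this sum was Sec14l3 in each of them. Sec14l3 had 61.7 to 283 per 1000, lowest in 1-1 and highest in 4-1, a 4.59-fold range, while its CPM spanned 24.9 to 495. Dnah9 had 5.95 to 44.1, Hydin 3.87 to 27.03, Dnah11 4.09 to 28.1 and Ccdc40 2.07 to 10.5 per 1000. Ccdc39 spanned 1.65 to 40.6 per 1000, wider than its 1.82 to 13.3 CPM in the same metastases. Foxj1 spanned 0.313 in 4-1 to 24.6 in 3-1. Metastasis 1-1, with 8031 CPM of Scgb1a1 against 164 to 597 CPM in the other 11, had the lowest ratio for all of the 10 genes but Foxj1, Ccdc40 and Tekt1. In metastases 2-3 and 2-4, at 20 and 33 counts of Scgb1a1, Sec14l3 had 50 and 212 per 1000, from 1 and 7 counts, but Dnah5 had 51850 and 19300. Of the primary tumours, 3, 4 and 5 had under 10 counts of Scgb1a1 and gave no ratio. In primary tumours 1, 2 and 6, Sec14l3 had 71.9, 250 and 76.0 per 1000, from 11, 3 and 6 counts, inside the range of the metastases. Other genes did not keep to that range. Ccdc40 had 85.0, 667 and 76.0 per 1000 there, Tekt1 85.0, 1500 and 12.7, and Ccdc39 536, 4917 and 203. These lay above the 12 metastases and came from 1 to 82 counts. The remaining genes lay above them in at most some of these tumours.

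**Figure D4:**
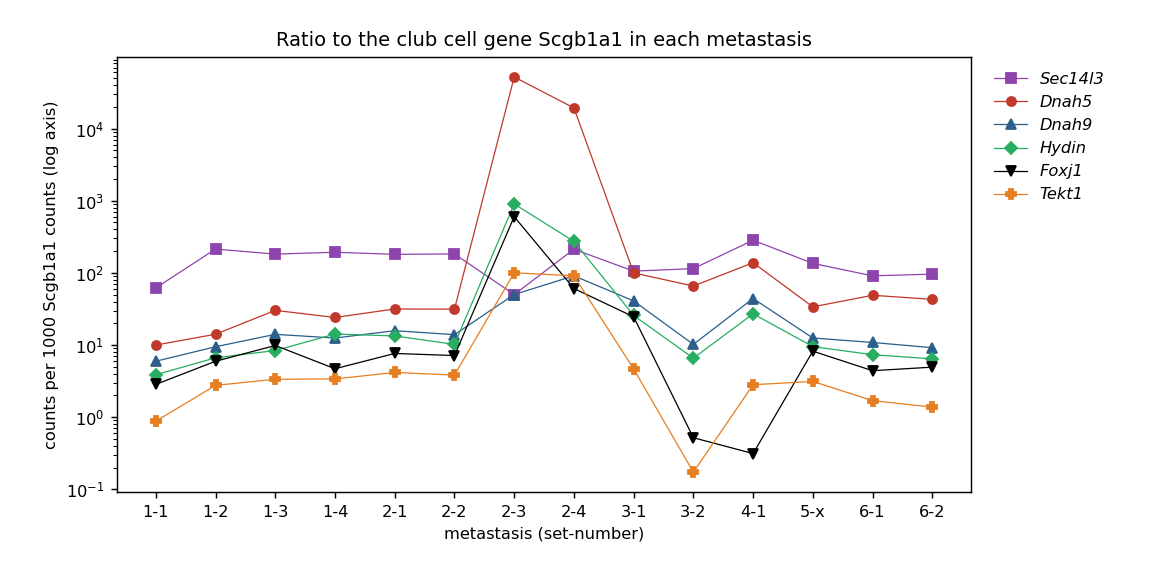
Counts of 6 of the genes per 1000 counts of Scgb1a1 (log axis) in each of the 14 metastases, labelled by set and number. Sec14l3 stays between 50 and 283, Dnah5 leaves the other genes in 2-3 and 2-4, and Foxj1 drops to 0.518 in 3-2 and 0.313 in 4-1.

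The relation was also fitted as a slope of log expression on log2 CPM of Scgb1a1 over the 14 metastases, where a slope of 1 is a constant ratio. It was positive and past the threshold for 8 of the 10 genes, all but Dnah5 and Rsph1, against 3.82% of all genes (edgeR, adjusted over 19260 genes). Sec14l3 had the steepest slope, 0.95 ± 0.070 (SE), not shown to differ from 1 (edgeR adjusted p 0.505). Dnah9 had 0.76, Dnah11 0.69, Ccdc40 0.51, Tekt1 and Foxj1 0.49, Hydin 0.44, Ccdc39 0.24, Rsph1 0.10 and Dnah5 0.05, and these 9 differed from 1, as did 98.7% of all genes. With the matched set as a replicate block 6 were called positive, without Foxj1 (edgeR adjusted p 0.0852) and Ccdc39 (0.159). Metastases 2-3 and 2-4 decided much of this. Without them Dnah5 had 0.61, Rsph1 0.67, Hydin 0.76, Ccdc40 0.80 and Foxj1 1.05, only Ccdc39 (0.39) and Sec14l3 (0.73) differed from 1, and 7 genes were called positive. Without metastasis 1-1 the count called positive was 4, namely Dnah9, Dnah11, Ccdc40 and Sec14l3, and Dnah5 and Rsph1 had slopes of -0.07 and -0.04.

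The count ratio of Foxj1 to Dnah9 was 0.375 to 0.702 in the 10 metastases other than 2-3, 2-4, 3-2 and 4-1. It was 0.0509 (95% exact interval 0.0102 to 0.156) in 3-2, from 3 and 59 counts, and 0.00709 (0.000855 to 0.0259) in 4-1, from 2 and 282 counts. These are the metastases with leans of -3.16 and -3.79. In metastases 2-3 and 2-4, which do not lean that way, the ratio was 12 (1.78 to 513), from 12 and 1 counts, and 0.667 (0.0557 to 5.82), from 2 and 3 counts. Tekt1, at 51.7% G+C, was also lowest in 3-2, with 1 count, but had 18 counts in 4-1. The part of base composition in these ratios was not tested.

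**Figure D5:**
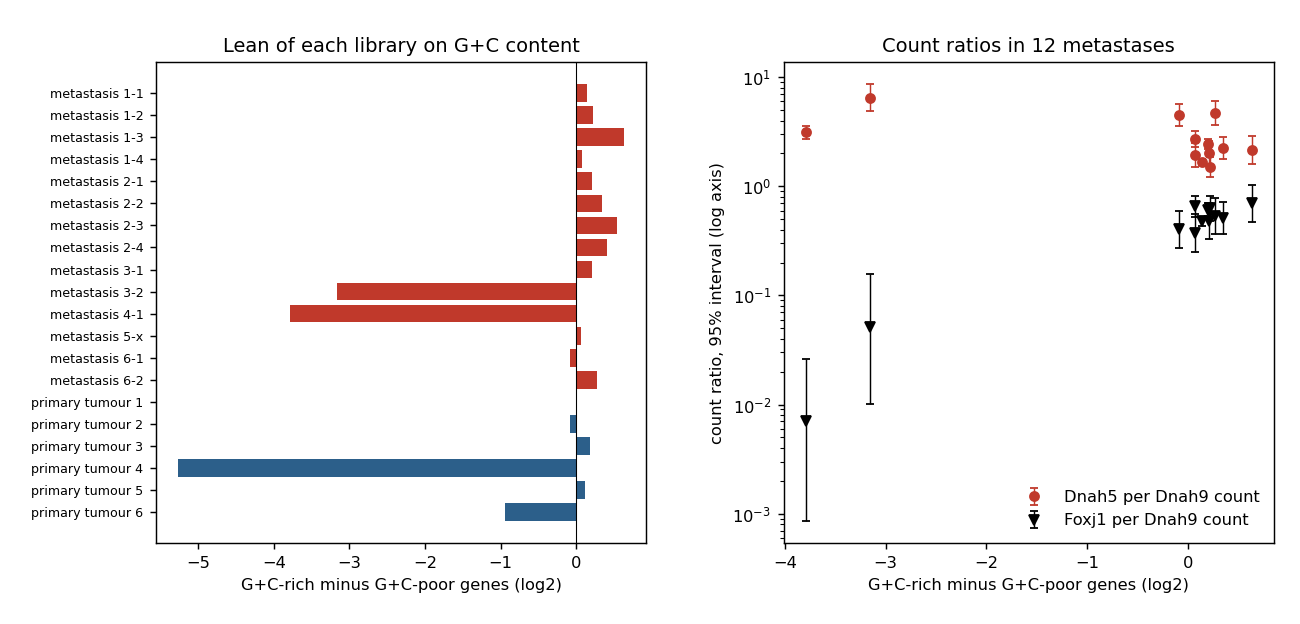
Left, lean of each library on G+C content (log2, G+C-rich minus G+C-poor genes), metastases in red above primary tumours in blue. Right, counts of Dnah5 and of Foxj1 per count of Dnah9 (log axis, 95% exact intervals) against that lean in the 12 metastases with at least 50 counts of Dnah9; the Foxj1 ratio is 0.00709 and 0.0509 in the most leaning libraries and 0.375 to 0.702 in the others.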

How the data were processed

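RNA of 14 lung metastases and 6 primary tumours was isolated with a Direct-zol kit, and stranded libraries depleted of ribosomal RNA were made, per the labels' protocols. Trimmomatic 0.36, STAR (version string 5.5.4b, doubtful as a release) and HTSeq were used with mm10, per the submitters' processing notes. Neither the annotation release nor the strand setting is stated there. The authors deposited whole-number counts per gene, with no normalization, for 51826 genes in 20 libraries. Gene identifiers were matched to a GENCODE annotation of GRCm38. A symbol was found for 51633, 47648 of which had an unchanged version, and the rest held 0.017% of counts.

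Metastases were compared with primary tumours in edgeR 4.0.16 (R 4.3.3) by a robust quasi-likelihood test on the deposited counts, after filterByExpr (minimum count 10, by group) and TMM scaling, with the matched set as a block (13 residual degrees of freedom) and a Benjamini-Hochberg threshold of 0.05 over all genes. Log2 CPM used a prior count of 2. The pairing comes from the titles and the design text. The deviations of a primary tumour and its metastases from their group means correlated at -0.178 to 0.348 over the 1000 most variable genes. Differences between sets and slopes on Scgb1a1 were tested in edgeR over all genes. Ratios to Scgb1a1 needed at least 10 counts of it. Alternatives used limma 3.58.1 and DESeq2 1.42.0, other scaling and filters, and fits without a set or library. The scripts were tested on simulated data.

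The members and lists were chosen with earlier results of these data known. The genes named are the 10 members, Scgb1a1, the 3 tested genes of smallest p in each list (the lung, muscle and basal lists are given by counts and sums) and the 8 genes most like the members. Tppp3, Cfap126, Tnp2, Ttr, Hp, Cbr2, Ttc14, Trp73, Gmnc and Cdc20b were named after their values were seen.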

Additional observations from a re-analysis of the deposited data

Results flagged for a closer look

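Each value was compared with its group of 6 primary tumours by the gap to its nearest neighbour over the group's range. Among the 10 genes and Scgb1a1, 3 values stood apart by that measure, and chance flags about 1 in 20 groups. Dnah5 stood apart in primary tumour 4, at 25.5 CPM. Ccdc39 stood apart in the same tumour, at 6.15 CPM, where its opposite-strand neighbour Ttc14 was also highest. That tumour also leaned most to G+C-poor genes, and Ccdc39 is 39.9% G+C. Hydin stood apart in primary tumour 5, at 0.177 CPM, which is 6 counts.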

How the results depend on the processing

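Of the 10 genes, the 8 called higher were 4 when the metastases of each set were summed (Dnah5, at 0.0977, among those lost) and 4 to 8 when each set was left out in turn (leave-one-out; 4 without set 1, 5 without set 2 or set 6). Without the replicate block 7 were called, Dnah5 being lost (log2 fold change 2.35, edgeR adjusted p 0.216), and no other call changed. The count was 6 to 8 under the other settings, and 0 genes were called lower under any. Dnah11, Hydin and Sec14l3 kept their calls under all 17 alternatives. Of the other motile cilia genes, 38 were called, 20 with sums, 22 with metastasis 1 of each set alone and 20 to 38 when each set was left out. Between sets, 0 of the 10 genes were called under every alternative. Positive slopes on Scgb1a1 numbered 8, and 4 without metastasis 1-1, where those of Dnah5 (-0.0665) and Rsph1 (-0.0446) turned negative. They numbered 6 with a replicate block, which removed Foxj1 (edgeR adjusted p 0.0852) and Ccdc39 (0.159). The summed ratio to Scgb1a1 had a median of 279 with at least 10 counts and 277 with at least 50. The alternatives on metastasis 1-1, on the libraries that lean on G+C content and on the other motile cilia genes were chosen after seeing the data. The causes were not tested.

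Over all genes, 1354 were called higher and 1189 lower. DESeq2 called 2310 and 1861, sums 297 and 63, metastasis 1 of each set alone 307 and 108, and leaving out a set 567 to 1643 and 407 to 1409. The G+C offset, fitted with the replicate block, called 1846 lower. Between sets, 64 genes were called, 3780 without metastases 2-3 and 2-4, 511 with limma voom and 0 to 2346 when a set was left out. Positive slopes on Scgb1a1 numbered 735, and 179 without metastasis 1-1, 1128 with a replicate block and 1203 without metastases 3-2 and 4-1. In primary tumours the genes other than Ccdc39 and Dnah5 had only 13 to 65 counts each over all 6 libraries, which limits how well their levels there are known.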
